A study of Danio rerio with 3 samples.

Results

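The genes described here are those of the respiratory chain that zebrafish carry in the mitochondrial genome rather than in the nucleus. They were chosen from a list of 10 gene symbols (COX1, COX2, COX3, ND1, ND2, ND3, ND4, ND5, CYTB and ATP6), looked up in the platform's table of probes and genes. Of the 10, 5 had a probe under their symbol there, ND1, ND2, COX1, ND3 and ND5, out of 14462 gene symbols in the table. For COX2, COX3, ND4, CYTB and ATP6 no probe carried the symbol in that table, and they were not analysed here. Each of the 5 genes had 1 probe, so no gene has a second probe to set beside the first.

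Each of the 3 samples was a two-channel array that set whole embryos exposed to Aroclor 1254, a commercial mixture of polychlorinated biphenyls, against control embryos. Per the labels' protocols, the exposed embryos were in 71.9 mg/L Aroclor 1254 for 24 h, starting at 24 hpf (hours post fertilization), and the control embryos stayed in fish medium at 28.5 °C. Both were collected at 48 hpf. The strain, the number of embryos in a sample and any solvent in the control medium were not given in the sources used here. The samples are labelled biological replicates 1 to 3, with no word on clutch or culture, so p-values reach no further than these 3 samples. In limma they rest on a gene's own spread between the samples and on the spread of all fitted genes. A gene's own spread had 2 degrees of freedom and that of all genes added 4.58.

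A value is the log2 of a ratio between the 2 conditions, with the sign that the authors deposited. The log base was taken as 2, and the natural logarithm could not be told from it. Dyes were swapped in the design, and the labels do not settle which condition is the numerator, so "positive" and "negative" refer to the table and not to a direction of exposure. On the same sign, cyp1a, the monooxygenase used as the marker of dioxin-like exposure, stood at 7.07, 8.61 and 8.02 in replicates 1, 2 and 3. Probes were tied to values by their place on the array, an inference from these data, and every gene name below rests on it. In whole embryos, a change in the number of cells of a type and a change in RNA per cell cannot be told apart, nor can a change in the number of mitochondrial genomes per cell.

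Mitochondria make most of a cell's ATP by passing electrons along complexes I to IV of the inner membrane and letting protons back through complex V, the ATP synthase. A small part of these complexes is encoded in mitochondrial DNA, and the rest is encoded in the nucleus, translated in the cytosol and imported. Mitochondrial messages are cut from long transcripts that span many genes, and they are abundant in tissues with high energy use such as heart, muscle and brain. The ND genes encode core membrane subunits of complex I, the NADH dehydrogenase, through which protons are pumped. COX1 encodes the catalytic core of complex IV, cytochrome c oxidase, where electrons are passed to oxygen. The gene identifiers in the probe table (140531 for ND1, 140532 for ND2, 140539 for COX1, 140533 for ND3 and 140535 for ND5) are those of the mitochondrial chromosome in RefSeq, so COX1 here is the oxidase subunit and not a cyclooxygenase.

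All 5 probes had a value in each of the 3 replicates, whereas 36.2% of the 21060 probes with a gene symbol did. The sixth mitochondrial gene with a probe, ND6, which encodes another subunit of complex I and lies on the opposite strand, had no value in any replicate.

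The 5 mitochondrial genes were all positive in replicates 2 and 3, as 26.8% of all genes were, and split in sign in replicate 1. Their ratios ran from 1.26 to 2.71 in replicate 2, from 0.49 to 1.01 in replicate 3 and from -0.91 to 0.25 in replicate 1, so the 3 ranges did not overlap. None of the 5 passed an adjusted p of 0.05 in limma over 5904 genes, where 0.0169% of genes (1 gene) passed. Each of the 5 has 1 probe, so its row holds the same values and the fit over rows is no separate check. There too none of the 5 passed, among 10200 rows of which 0.0686% did. At an unadjusted p of 0.05 in the limma fit over genes, 1 of the 5 passed, ND5, a share near the 16.1% of all genes that did. The same count was 5 without replicate 1, in which each gene was lowest, and 0 without replicate 2, in which each was highest. The share of all genes in those fits is not given here, so these counts are not read as a result about the 5 genes.

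ND5 encodes one of the proton-pumping subunits at the far end of the membrane arm of complex I. Its log2 ratio was 0.08, 2.01 and 1.01 in replicates 1, 2 and 3. It was positive in all 3, close to 0 in replicate 1 and above 2-fold in the others. The mean was 1.04 ± 0.97 (SD, n = 3; 2.05-fold), with a 95% interval of 0.11 to 1.96 and an adjusted p of 0.267 in limma. Before adjustment over all genes the limma p was 0.0331. Both the interval and the p use a variance that limma drew toward that of all genes, whereas the SD is that of the 3 values alone.

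COX1, the catalytic subunit of complex IV, had log2 ratios of 0.11, 2.71 and 0.49 in the 3 replicates. The value of replicate 2 (6.53-fold) was the largest of any of the 5 genes, and the other replicates lay at 1.08-fold and 1.41-fold. The mean of 1.1 ± 1.4 (SD, n = 3; 2.15-fold) had an interval of -0.10 to 2.31 and an adjusted p of 0.333 in limma.

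ND3, a small subunit next to the ubiquinone-binding part of complex I, read 0.25, 1.26 and 0.52. It varied least of the 5 and was positive in all 3 replicates. The mean was 0.68 ± 0.52 (SD, n = 3; 1.60-fold), with an interval of -0.01 to 1.36 and an adjusted p of 0.314 in limma.

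ND1, the subunit that helps form the ubiquinone-binding site, and ND2, a proton-pumping subunit, changed sign between replicates. ND1 stood at -0.68, 1.58 and 0.70 and ND2 at -0.91, 1.39 and 0.82. Both were negative in replicate 1, where the other 3 genes lay just above 0. Their means were 0.53 ± 1.14 and 0.43 ± 1.2 (SD, n = 3 each), with intervals of -0.50 to 1.57 and -0.64 to 1.51. The adjusted p in limma was 0.547 for ND1 and 0.641 for ND2.

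**Figure D1:**
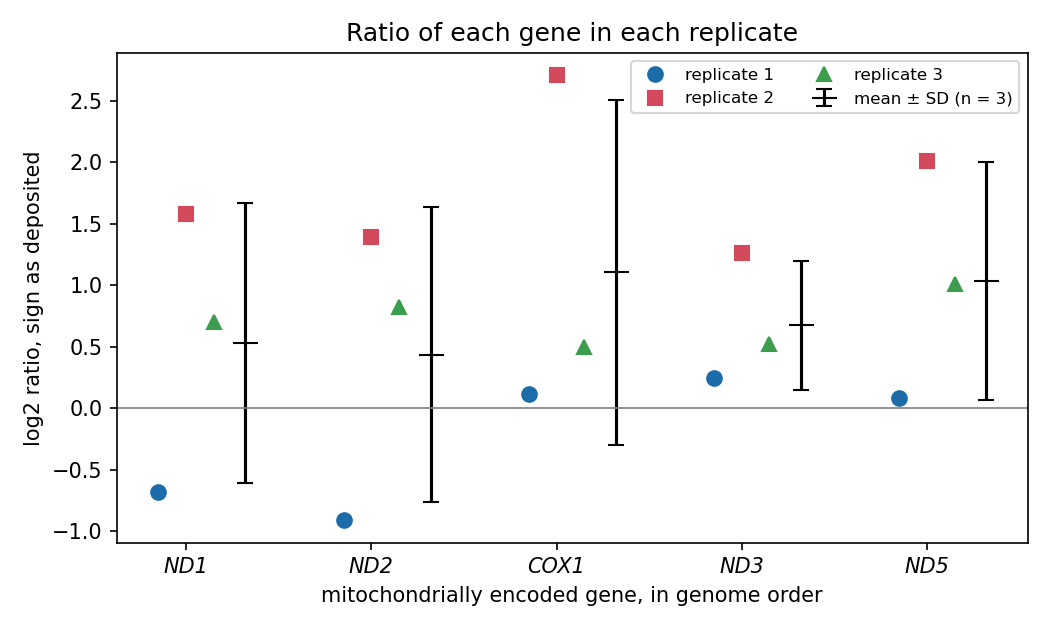
Log2 ratio of exposed and control embryos, sign as deposited, for each of the 5 mitochondrially encoded genes (horizontal axis, in the order of the mitochondrial genome). Points are replicates 1, 2 and 3, and the black bar is the mean ± SD (n = 3). Replicate 2 lies above replicate 3 and replicate 3 above replicate 1 in every gene, with replicate 1 between -0.91 and 0.25.

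In each of the 5 genes replicate 1 was the lowest and replicate 2 the highest, an order found in 20.5% of all genes. Positive values in all 3 replicates were found for 3 of the 5 genes, against 19.7% of all genes, and negative values in all 3 for 0, against 23.1%. No gene of the 5 was positive by at least 1.5-fold in all 3 replicates, and 2.63% of all genes were. ND1 and ND2 exceeded 1.5-fold in each replicate, but on the negative side in replicate 1. In replicate 2 alone all 5 were positive by at least 1.5-fold, and 23.3% of all genes were. These counts describe 5 genes of 1 genome, whose messages share their precursors, and they are not 5 independent observations.

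The replicates differ in how widely their ratios spread, so each value was also placed among all 5904 genes of its own replicate. In replicate 2 the 5 genes lay between the percentiles 92.6 (ND3) and 99.4 (COX1). In replicate 3, where the ratios of all genes spread least, they lay between 88.0 (COX1) and 97.8 (ND5). These places were similar although the log2 ratios in replicate 3 were smaller. In replicate 1 the genes stood apart from each other: ND3, COX1 and ND5 were at the percentiles 65.2, 57.2 and 55.4, and ND1 and ND2 at 17.0 and 10.8.

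**Figure D2:**
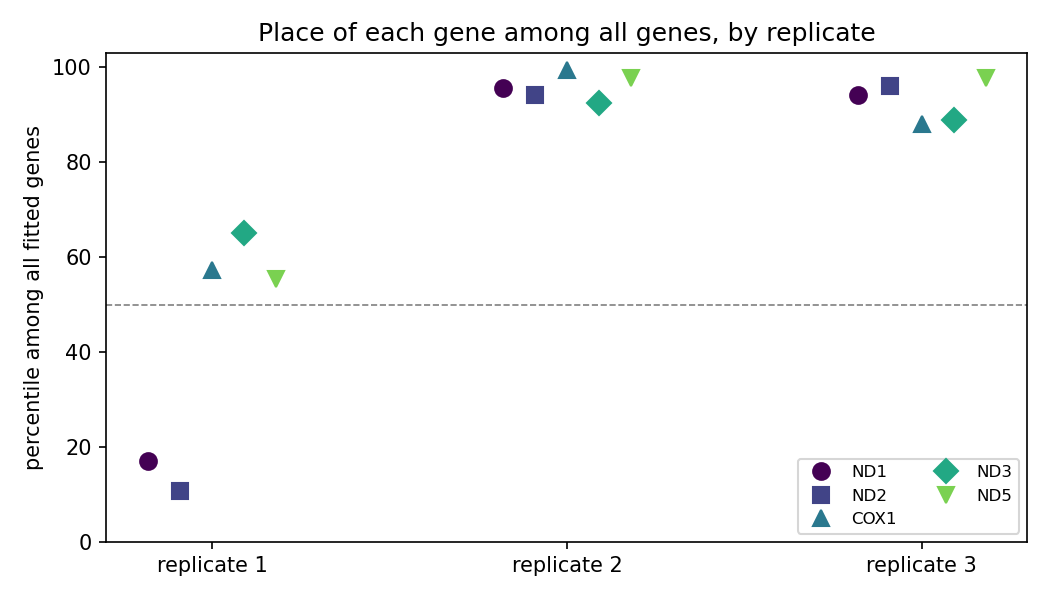
Percentile of each of the 5 mitochondrially encoded genes among the 5904 genes of the same replicate (vertical axis), for replicates 1, 2 and 3 (horizontal axis); the dashed line marks the middle of all genes. All 5 lie at 88.0 or higher in replicates 2 and 3, and between 10.8 and 65.2 in replicate 1.

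The median over the 5 genes was 0.08, 1.58 and 0.70 in replicates 1, 2 and 3, and the median over all genes was -0.01, -0.03 and -0.05. The median of the 5 mean ratios was 0.68, against -0.03 over all genes. It was 0.30 without replicate 2 and 1.14 without replicate 1. Without replicate 2 the mean of COX1 was 0.30, that of ND5 0.55 and that of ND3 0.38. The means of ND1 and ND2 were then 0.01 and -0.05. The SD over replicates was between 0.52 and 1.4 in the 5 genes, with a median of 1.14 against 0.44 over all genes, and 61.0% of all genes varied less than the least variable of the 5.

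The 5 genes were also compared with each other along the genome. RefSeq lists 13 protein-coding genes on the mitochondrial chromosome, and ND1, ND2 and COX1 are the first, the second and the third of them, ND3 the eighth and ND5 the eleventh. The neighbours ND1 and ND2 had the most similar profiles of the 10 pairs, with a root mean square difference of 0.18 on the log2 scale over the 3 replicates. The next gene in the genome, COX1, differed from ND2 by 0.98, the largest difference of any pair. The pair COX1 and ND5 followed ND1 and ND2, at 0.50. The spots of ND1 and ND2 lay 55.7 grid steps apart and those of COX1 and ND5 59.4, the shortest distances of the 10 pairs. Other pairs did not follow the order of distance. ND2 and ND3, the next nearest at 66.5 steps, differed by 0.70. ND3 and ND5, at 162.7 steps, differed by 0.53 and ND1 and ND5, at 199.1 steps, by 0.54. Each of the nearest pairs also lay along an edge of the array. ND1 and ND2 were in grid rows 7 and 16, and COX1 and ND5 in grid columns 168 and 161. ND3 lay further inside, in column 49 and row 82. The part of array position in the similarity of these profiles was not tested.

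When a smooth trend over the array was taken out of each replicate, COX1 stood at -0.06, 2.43 and 0.43 and ND5 at -0.16, 1.82 and 0.87. ND3 was then at 0.41, 1.32 and 0.65, ND1 at -0.71, 1.46 and 0.32 and ND2 at -0.77, 1.40 and 0.62. The count of genes positive in all 3 replicates was then 1 (ND3) rather than 3, since COX1 and ND5 turned slightly negative in replicate 1. The share of all genes with that pattern after the same step is not given here, so this count is not read as a result about the 5 genes. The values of replicate 2 stayed between 1.32 and 2.43 in all 5 genes.

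The nuclear genes for the same complexes lay closer to 0 as a list than the mitochondrial genes in replicates 2 and 3. Over 66 measured nuclear-encoded subunits of complexes I to V with cytochrome c, the median was 0.18, 0.02 and 0.06 in replicates 1, 2 and 3. The median of the 5 mitochondrial genes minus that median was -0.10, 1.56 and 0.64. Of the 66 nuclear genes, 33 were positive in replicate 2, against 48.8% of all genes. A mean at or above 0.43, the lowest mean of the mitochondrial genes (ND2), was found for 7 of the 66. That mean lay at percentile 82.2 of all genes. Positive values in all 3 replicates were found for 16 and negative ones for 10 of the 66, against 19.7% and 23.1% of all genes. None of the 66 passed in limma. With 3 replicates and genes chosen with earlier results known, the difference between the lists was not tested.

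Within complex I, which holds 4 of the 5 mitochondrial genes, 28 nuclear subunits were measured, with medians of 0.19, 0.04 and 0.13 in the 3 replicates. Of these, 8 were positive and 2 negative in all 3, against 19.7% and 23.1% of all genes. The lowest p was that of ndufa3, an accessory subunit, at -1.08, -1.3 and -1.15 (adjusted p = 0.157 in limma). It was negative in each replicate with little spread. The accessory subunit ndufb6 read 0.68, 0.75 and 0.11 (adjusted p = 0.367, limma). The gene ndufa4a, first described in complex I and in mammals since assigned to complex IV, stood at 0.95, 0.55 and 0.44 (adjusted p = 0.278, limma). Both of these were positive in each replicate.

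Complex IV, to which COX1 belongs, had 13 measured nuclear genes, with medians of 0.23, -0.003 and 0.06. One of them stood far from the rest: cox4i1l, a form of the regulatory subunit 4 that binds to the COX1 core, at 2.48, 4.78 and 1.97 from 1 probe. Its mean of 3.08 ± 1.5 (SD, n = 3; 8.44-fold) had an adjusted p of 0.124 in limma. Like COX1 it was highest in replicate 2, and unlike COX1 it exceeded 3-fold in every replicate. The structural subunits cox5ba (0.55, -0.02 and 0.48) and cox5ab (-0.22, -0.19 and -0.37) had the next lowest p, with adjusted p in limma of 0.521 and 0.586.

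The complexes with no measured mitochondrial gene lay near 0 as lists. Complex II, the succinate dehydrogenase, which is encoded in the nucleus alone, had a median of the mean ratios of 0.15 over 4 genes, with sdhc at 0.49 ± 0.20, sdhb at 0.20 ± 0.29 and sdhdb at -0.34 ± 0.17. Complex III with cytochrome c had one of -0.08 over 7 genes, with the cytochrome c gene cycsb at -0.45 ± 0.49, uqcrq at 0.36 ± 0.19 and uqcrc2b at -0.28 ± 0.10. Complex V had one of -0.01 over 14 genes, 4 of them negative and 3 positive in all replicates (23.1% and 19.7% of all genes). Its peripheral stalk gene atp5pf read -0.75, -1.88 and -1.60, its ring subunit gene atp5mc3a -0.83, -0.84 and -0.78, and the catalytic-part gene atp5f1d averaged -0.44 ± 0.29 (SD, n = 3 each). Their adjusted p in limma were 0.163, 0.206 and 0.411.

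**Figure D3:**
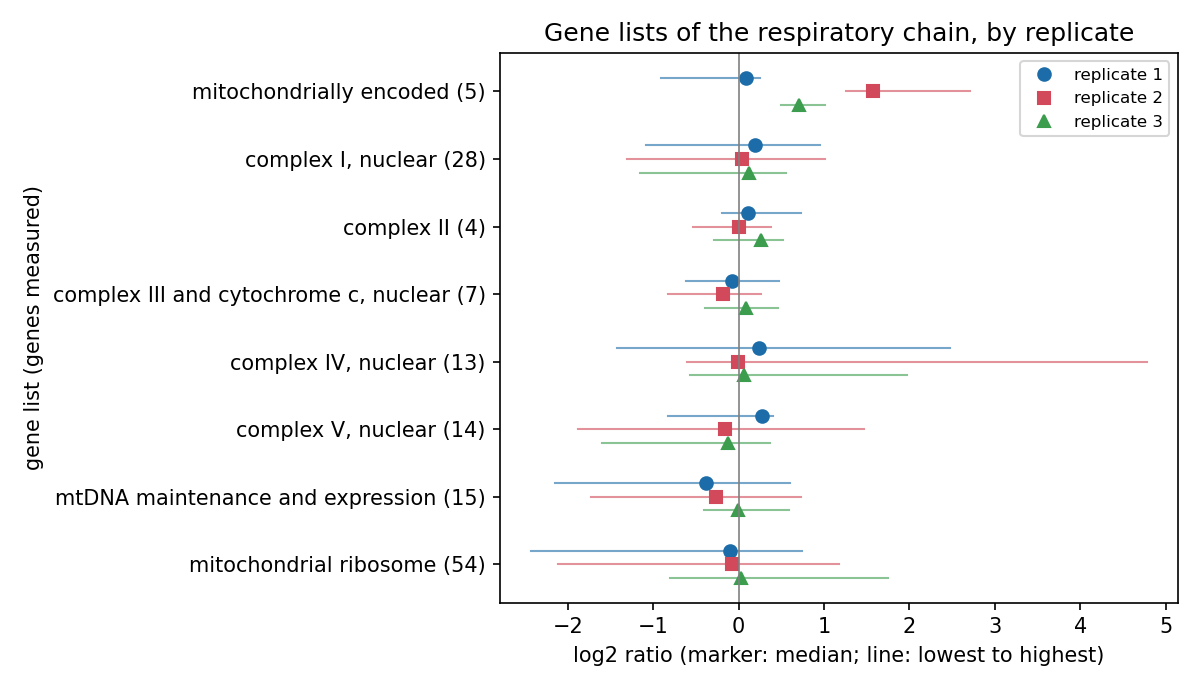
Log2 ratios, sign as deposited, of the mitochondrially encoded genes (top) and of nuclear gene lists of the respiratory chain and of mitochondrial gene expression, with the number of measured genes in parentheses. Markers give the median in replicates 1, 2 and 3 and lines run from the lowest to the highest gene; the mitochondrially encoded genes have a median of 1.58 in replicate 2, and the medians of the other lists lie between -0.27 and 0.04 there.

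The nuclear genes that copy, transcribe and translate mitochondrial DNA were looked at beside the genes they act on. Of 29 such genes on the array, 15 were measured, with medians of -0.39, -0.27 and -0.004 in replicates 1, 2 and 3. They included 2 positive and 5 negative in all replicates, against 19.7% and 23.1% of all genes. The gene fastkd3, of a family of mitochondrial RNA-binding proteins, was at 0.55, 0.73 and 0.59 (adjusted p = 0.269, limma). The elongation factor genes gfm1 and gfm2, whose products act in mitochondrial translation and ribosome recycling, read -1.3, -1.72 and 0.27, and -0.39, -1.51 and -0.41 (adjusted p of 0.324 and 0.3 in limma). Both were lowest in replicate 2, whereas fastkd3 was highest there and the median of the list was lowest in replicate 1.

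Proteins of the mitochondrial ribosome, which translates the messages of the 5 genes, gave a median of -0.03 over 54 measured genes and of -0.10, -0.07 and 0.03 in the 3 replicates. Of them 11 were positive and 14 negative in all replicates, against 19.7% and 23.1% of all genes. At an unadjusted limma p of 0.05 there were 1 positive and 3 negative, against 7.67% and 8.43% of all genes. The genes mrpl12 (-1.63 ± 1.12), mrpl32 (0.92 ± 0.22) and mrps22 (-0.65 ± 0.14; SD, n = 3 each) had the lowest p, with adjusted p in limma between 0.195 and 0.261. MRPL12 is known in mammals to bind the mitochondrial RNA polymerase as well. Its zebrafish gene was at -2.43, -2.11 and -0.35, negative in each replicate.

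Markers of tissues also differed between the replicates. The median of 7 measured red cell genes was 0.58, 1.63 and -0.42 in replicates 1, 2 and 3, highest in replicate 2. All 7 were positive in replicate 2 (range 0.91 to 2.45), against 48.8% of all genes. Globin genes of this list are so alike that a probe may read more than 1 of them. In replicate 3 the 7 red cell genes were all negative (-1.19 to -0.07), where 45.7% of all genes were positive. Neural genes had medians of 0.08, -1.13 and -0.14 over 10 genes and were between -2.85 and 0.11 in replicate 2. The medians of skeletal muscle, a tissue rich in mitochondria, were -0.16, -0.14 and 0.14 over 14 genes, with 0 genes in the order of the mitochondrial genes (replicate 1 lowest, replicate 2 highest). Heart, another such tissue, had medians of -0.41, 0.55 and -0.01 over 6 genes, in the order of the mitochondrial genes. Of these 6, 3 had that order, found in 20.5% of all genes, and 5 were positive in replicate 2, against 48.8% of all genes. The order was also that of 3 of the 6 liver and yolk layer genes and 1 of the 7 red cell genes. No measured neural, retina and lens, or skin and hatching gland gene had it. Retina and lens genes gave 1.54, -0.85 and -0.45 over 4, liver and yolk layer genes -1.38, -0.48 and 0.23 over 6, and skin and hatching gland genes 0.03, 1.08 and -0.73 over 3. Each of the 7 tissue lists had measured genes, and a ratio does not show the share of a tissue in a sample. Their part in the ratios of the mitochondrial genes was not tested.

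The genes whose profile over the 3 replicates was nearest to the median of the 5 mitochondrial genes, by Euclidean distance on the log2 scale, were slc2a15b, plpp1a, cav1, psat1 and zgc:123105. Of these, cav1 encodes the coat protein caveolin, psat1 an enzyme of serine synthesis and plpp1a a lipid phosphatase. Their distances were between 0.11 and 0.22, where the farthest of the 5 mitochondrial genes was at 1.15 and the median over all genes was 1.95. The nearest, slc2a15b, a sugar transporter gene, stood at 0.11, 1.48 and 0.66. Within 1.15, a radius set by the farthest of the 5 genes, lay 676 other genes of the 5904 fitted.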

How the data were processed

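RNA from whole zebrafish embryos was measured on 3 two-channel arrays. Per the labels' protocols, 2 µg of total RNA from exposed and from control embryos went into amplification and labelling with the dyes Cy3 and Cy5. The authors deposited 1 log ratio per row and sample; the deposited values were taken as log2, which the files do not state; for the scanner, background correction, normalization and the filter behind empty rows, the sources used here give nothing. Of 45219 rows, 12735, 10487 and 12062 had a value in replicates 1, 2 and 3. Signal levels are unknown. The number of arrays limits the precision.

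Gene symbols came from the platform's probe table, matched to rows by grid position. A gene's value is the mean of its measured rows in a sample. Genes with a value in all 3 samples (5904) were fitted with limma 3.58.1 in R 4.3.3 (lmFit, eBayes, mean against 0, 2-sided, Benjamini-Hochberg over all genes); rows (10200) likewise. The script was tested on simulated data. Intervals are limma's 95% intervals. Lists were described by counts and medians without a test. The named genes are the 5 members, the 3 lowest p of each list, the 5 nearest profiles and cyp1a. Members, lists and rules were chosen with earlier results of these data known. Alternatives were median centring, equal scale, quantile normalization, removal of a cubic position trend, array weights, robust eBayes, genes measured in at least 2 samples, the median over rows, row numbers as given, and each replicate left out. Control spots, dim probes and slides were not treated, since no scanner file was used here.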

Additional observations from a re-analysis of the deposited data

How the results depend on the processing

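No member gene or row passed under any of the 12 alternative settings for genes or the 10 for rows, where limma called 0 throughout. The row of each member holds the same values as its gene, so the fits over rows are no separate check. At an unadjusted p of 0.05 the reported fit held 1 of the 5 genes, against 5 without replicate 1, 0 without replicate 2, 1 without replicate 3, 2 with median centring and 3 each with equal scale and quantile normalization. The share of all genes at that unadjusted p is not given for the alternatives. The counts over all genes and rows that follow are at adjusted p. Over all genes the number called was 1 in the reported fit, 47 with equal scale, 61 with quantile normalization, 40 with array weights, 20 without replicate 3 and 8 with the row numbers as given. Over all rows it was 7, and 55, 52, 107, 186, 62 and 19 with equal scale, quantile normalization, array weights, without replicate 2, in at least 2 samples and with the position trend removed. Of 56 values of single genes, 54 kept their sign and their side of the threshold. Part of this was fixed in advance. Robust eBayes, the median over rows and the rule of at least 2 samples could not change the mean of a gene with 1 probe and 3 values. The lowest adjusted p in limma under any setting was 0.168 (ND5). With a replicate left out, ND2 lay between -0.045 (without replicate 2) and 1.11 (without replicate 1). The other turned value was that of ND5, -0.46 with the row numbers as given, where it was the only one of the 5 with a value in all replicates. That setting gave 0 genes positive and 1 negative in all replicates and a median of -0.46. The count positive in all replicates was 1 with the position trend removed, and 3 to 5 with a replicate left out (5 without replicate 1, in which ND1 and ND2 were negative). The share of all genes is not given for these settings. The median over the 5 genes was 0.30 to 1.14 with a replicate left out and 0.66 to 0.80 under the scalings and without the position trend. The array weights were 0.99, 0.47 and 2.15 for replicates 1, 2 and 3, so replicate 2 counted least. With these weights the mean was 0.68 for COX1, 0.43 for ND1, 0.42 for ND2, 0.54 for ND3 and 0.89 for ND5. Each lay below the mean of the same gene in the reported fit. Counting genes with a value in at least 1 sample changed nothing, since all 5 had 3 values. The cause was not tested. No paired analysis was possible because the 3 ratios form 1 group, with both conditions inside every ratio.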

Other observations

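Genes that assemble the respiratory chain, protect mitochondrial proteins or regulate mitochondrial number were also measured. Of 21 measured assembly factors, with a median of -0.16, 2 were positive and 6 negative in all replicates, against 19.7% and 23.1% of all genes. The complex IV factor surf1 stood at -0.95, -1.41 and -1.75, the copper chaperone sco2 for the same complex at -1.03, -0.73 and -0.03, and coa5, another complex IV factor, at 1.3, 0.45 and 1.03. Their adjusted p in limma were 0.154, 0.35 and 0.211, so none passed. The 14 measured mitochondrial chaperone, protease and stress genes had a median of -0.19. In all replicates 4 were negative and 2 positive, against 23.1% and 19.7% of all genes. At an unadjusted limma p of 0.05, 4 were negative, against 8.43% of all genes. The protease subunit gene clpp read -1.51, -1.61 and -0.52, the prohibitin gene phb2b -1.13, -2.44 and -0.36, and the chaperonin gene hspd1 -1.6, -1.3 and -0.24 (adjusted p of 0.193, 0.221 and 0.221 in limma). Of 9 regulators of mitochondrial biogenesis on the array, 3 were measured: gabpa at -0.29, -0.71 and -0.30, nrf1 at 0.22, 0.68 and -0.30 and the kinase gene prkaa1 at -0.65, 0.81 and -0.06.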
